A study of Mus musculus with 14 samples.

Results

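The genes described here are 40 mouse genes of mitosis and of the G2/M stretch of the cell cycle, chosen by symbol: mitotic cyclins and kinases, spindle checkpoint, kinetochore, spindle and cytokinesis genes. All 40 were among the 55291 symbols of both deposited tables, and all 40 passed the filter on low counts in both comparisons. Cdc25c had the lowest count of any member in a library, 192 in the first table and 16 in the other. RNA sequencing covered 14 libraries from 2 experiments, all labelled as wild type. In the first experiment, whole OT-1 splenocytes were activated with 1 µg/mL of an ovalbumin peptide and 200 U/mL recombinant human interleukin-2. The T cell receptor of OT-1 mice recognises that peptide. After 3 days they were split and expanded for 4 days more, with 100 nM ND-646 throughout (4 libraries) or with the vehicle DMSO (4 libraries, labelled Control). ND-646 blocks acetyl-CoA carboxylase, the first enzyme of fatty acid synthesis. Peptide and interleukin-2 were thus given to both groups, and the cells were not sorted before RNA extraction as far as the labels say. In the second experiment, CD8+ T cells were enriched and sorted from the spleen (3 libraries) and from MCA205 fibrosarcomas (3 libraries) of C57BL/6 mice 14 days after the tumour cells were placed under the skin. MCA205 is an established mouse fibrosarcoma line. The labels call the tumour samples pooled and speak of groups of mice, without saying what was pooled, and they do not say whether replicates were separate animals or cultures. The p-values therefore rest on a spread between libraries that may be technical.

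A dividing cell enters mitosis when cyclin-dependent kinase 1, bound to cyclin A or cyclin B, is switched on by CDC25 phosphatases. Polo-like and Aurora kinases then build the spindle, kinetochores join the chromosomes to its microtubules, and the spindle checkpoint holds back the anaphase-promoting complex (APC/C) until every chromosome is attached. Most of these genes are transcribed late in the cell cycle, through CHR and CCAAT promoter elements bound by the DREAM and MuvB complexes, B-Myb, FOXM1 and NF-Y, and are silent in resting cells. Naive T cells rest, and antigen and interleukin-2 drive them through rapid divisions.

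In ND-646 cultures 39 of the 40 genes were lower than in vehicle cultures and none was higher, in edgeR's quasi-likelihood test at an adjusted p of 0.05. Of all 14251 genes tested, 26.5% were lower and 29.8% higher. The median log2 fold change of the 40 genes was -1.05 (quartiles -1.17 and -0.87), against 0.01 over all genes tested, and 4.05% of genes tested fell at least as far. The exception was Cenpa, the centromeric histone, whose groups overlapped. In the libraries of CD8+ cells sorted from tumours all 40 genes were higher than in those from spleen, where 43.6% of 15042 genes tested were higher and 40.2% lower. There the median log2 fold change was 3.31 (quartiles 2.95 and 3.66), against 0.03 over all genes, and 14.4% of genes tested rose at least as far. In the same tumour libraries 24 fibroblast and fibrosarcoma genes summed to 13443 to 19367 CPM (counts per 1e+06 of a TMM-scaled library), against 5.24 to 22.7 CPM in spleen, and 17 of 17 CD8 T cell identity genes were lower. The part of this in the rise of the 40 genes was not tested. All differences are in bulk RNA, in which fewer dividing cells and less of these transcripts per cell cannot be told apart.

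Library totals were 23.5 to 33.8 M counts (M, 1e+06) for the cultures and 19.6 to 21.02 M for the sorted cells. The limit that a count of 0 allows, 3 counts, equalled 0.0878 to 0.154 CPM, for counting error only. CD8 T cell identity genes, 17 in number, summed to 6735 to 7440 CPM in the cultures, to 11974 to 12067 CPM in the spleen libraries and to 5402 to 7164 CPM in the tumour libraries. Libraries of 1 group were not alike. Over all genes, chi-square per degree of freedom was 5.07 between ND-646 libraries 1 and 4 and 3.65 between 2 and 3, but 7.37 to 11.3 for the other pairings of ND-646 libraries. It was 3.09 to 7.11 between vehicle libraries, 2.33 to 3.62 between spleen libraries and 7.19 to 18.3 between tumour libraries. No batch is named in the labels. Of the 40 genes, 39 were higher in both ND-646 libraries 2 and 3 than in 1 and 4. With libraries 1 and 4 left out the median of the 40 genes was -0.93 and 39 were lower, and with libraries 2 and 3 left out it was -1.19 and all 40 were lower.

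The 40 genes together took 0.439 to 0.489% of all counts in the 4 vehicle libraries (mean 0.465 ± 0.0205%, SD) and 0.214 to 0.278% in the 4 ND-646 libraries (0.244 ± 0.0316%). They took 0.0567 to 0.0759% in the 3 spleen libraries (0.0669 ± 0.00967%) and 0.41 to 0.435% in the 3 tumour libraries (0.423 ± 0.0127%). Within each table the groups did not overlap. The tables were not tested against each other, since they come from separate experiments.

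**Figure D1:**
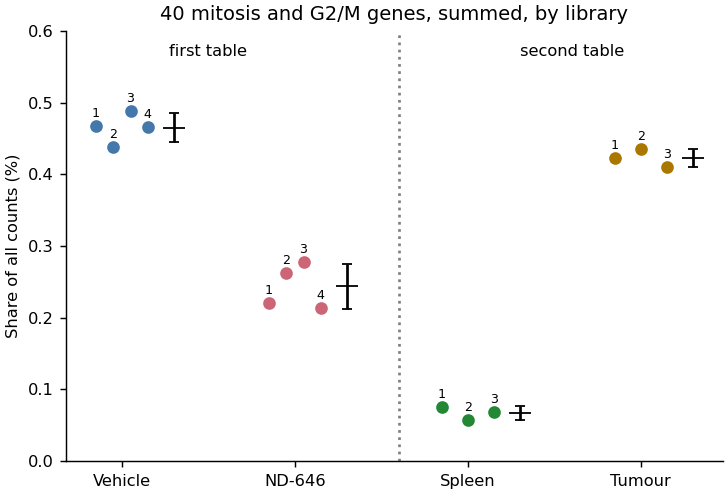
Share of all counts (%, linear axis from 0) taken by the 40 genes in each library, with the replicate number above each point and the mean ± SD as a black bar. Vehicle libraries sit between 0.439 and 0.489% and ND-646 libraries between 0.214 and 0.278%, and the spleen libraries stay below 0.08% while the tumour libraries lie between 0.41 and 0.435%.

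Since the 40 genes moved together, their promoters were read from RefSeq (build GRCm38.p6), from 250 bases before to 50 bases after each start. Of the 40 genes, 33 matched, with 35 windows because Ect2 and Prc1 have 2 starts each. The 2 windows of each of these genes overlap and hold the same matches. In 30 of the 35 windows the bases after the start lay in a GENCODE M21 transcript of the gene. The letters searched were TTTGAA and its reverse complement TTCAAA for the CHR, and CCAAT and its reverse complement ATTGG for the CCAAT box. A CHR match lay in 74.3% of the 35 windows, against 17.9% of all 32851 promoter windows of that length. A CCAAT match lay in 80.0%, against 37.4%, and both lay in 65.7%, against 6.95%. DNA replication genes, which are transcribed earlier in the cycle, had a CCAAT match in 71.4% of 35 windows and a CHR match in 8.57%. Among the other related lists described below, CHR matches were commonest in other motors, spindle and tubulin genes (48.3% of 29 windows). Other kinetochore and centromere genes had 40.7% of 27, and DREAM, MuvB, E2F and pocket protein genes 36.8% of 19. The condensin, cohesin and separase list lay between those shares. Other mitotic entry genes had 27.3% of 11, APC/C genes 15.8% of 19 and G1 genes 6.67% of 15. Such a match is a description of the letters and not evidence of binding.

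The stretches below are the 100 bases before the start, 5′ to 3′ on the gene's strand, with CHR and CCAAT letters in capitals. They show 4 genes with both kinds of letters there (Cdk1, Cdc20, Ube2c, Top2a). In these 100 bases 3 had CCAAT letters but not the CHR letters searched (Ccnb2, Ccnb1, Cdc25b), and 1 had neither (Birc5). Other spellings of the elements were not searched, so a gene without these letters may still have the element.
Cdk1, chr10:69352913-69353012, minus strand: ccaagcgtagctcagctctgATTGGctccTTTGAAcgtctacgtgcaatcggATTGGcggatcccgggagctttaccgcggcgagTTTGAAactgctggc
Cdc20, chr4:118437344-118437443, minus strand: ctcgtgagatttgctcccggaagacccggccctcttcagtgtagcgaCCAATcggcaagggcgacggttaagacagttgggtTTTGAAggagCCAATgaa
Ube2c, chr2:164769829-164769928, plus strand: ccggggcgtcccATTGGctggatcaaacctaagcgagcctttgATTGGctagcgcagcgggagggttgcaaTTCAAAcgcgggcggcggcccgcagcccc
Top2a, chr11:99024190-99024289, minus strand: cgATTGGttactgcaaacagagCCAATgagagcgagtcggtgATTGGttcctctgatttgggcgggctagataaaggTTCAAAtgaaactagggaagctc
Ccnb2, chr9:70421555-70421654, minus strand: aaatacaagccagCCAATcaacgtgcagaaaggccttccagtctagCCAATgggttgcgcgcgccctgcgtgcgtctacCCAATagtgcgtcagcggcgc
Ccnb1, chr13:100786487-100786586, minus strand: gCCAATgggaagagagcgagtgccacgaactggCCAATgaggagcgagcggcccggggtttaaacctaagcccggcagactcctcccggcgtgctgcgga
Cdc25b, chr2:131186848-131186947, plus strand: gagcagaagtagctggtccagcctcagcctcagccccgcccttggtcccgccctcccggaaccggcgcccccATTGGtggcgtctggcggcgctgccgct
Birc5, chr11:117849137-117849236, plus strand: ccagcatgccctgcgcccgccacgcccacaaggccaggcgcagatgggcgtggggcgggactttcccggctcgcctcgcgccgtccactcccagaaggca

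Many CHR matches lay at or just after the start. The 30 bases around that match are shown, with the CHR letters in capitals, for Ccnb2, Plk1 and Aurka and for 3 genes that changed least in 1 of the comparisons, Cenpa, Racgap1 and Kif23. The match began at base 5 in Ccnb2, 31 in Plk1, 33 in Aurka, 17 in Cenpa, 6 in Racgap1 and 3 in Kif23, counting the start as base 1.
Ccnb2, chr9:70421533-70421562, minus strand: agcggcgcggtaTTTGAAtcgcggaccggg
Plk1, chr7:122159453-122159482, plus strand: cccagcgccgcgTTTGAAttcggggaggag
Aurka, chr2:172370521-172370550, minus strand: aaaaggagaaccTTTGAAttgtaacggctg
Cenpa, chr5:30666890-30666919, plus strand: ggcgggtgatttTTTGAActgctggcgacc
Racgap1, chr15:99651634-99651663, minus strand: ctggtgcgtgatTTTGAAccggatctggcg
Kif23, chr9:61946780-61946809, minus strand: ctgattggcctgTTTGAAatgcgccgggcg

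**Figure D2:**
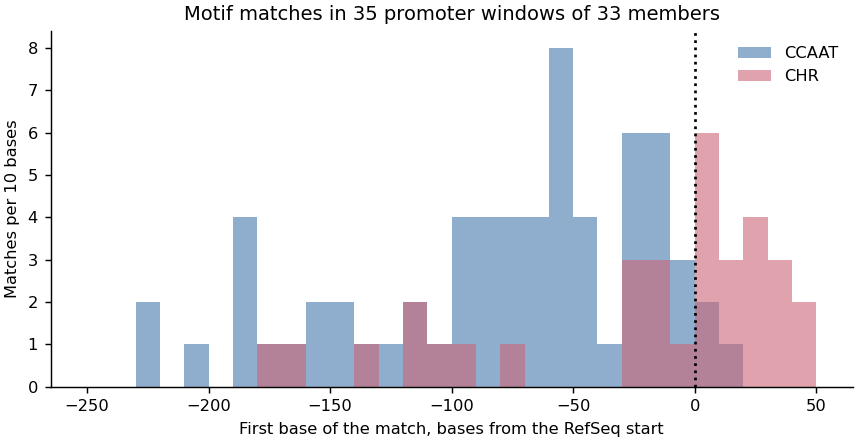
Positions of CCAAT and CHR letters (first base of the match, in bases from the RefSeq start, in bins of 10 bases) in 35 promoter windows of 33 of the genes; the height is the number of matches per bin. CCAAT matches lie mostly before the start and CHR matches mostly from 30 bases before it to base 41, with the start as the first base counted.

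Genes with and without the CHR letters had medians close to each other. The 23 genes with a CHR match between 100 bases before and 50 after the start had a median log2 fold change of -0.95 in the ND-646 comparison, and the 10 without had -1.10. In the tumour comparison these medians were 3.29 and 3.42. Birc5, with neither kind of letters in the stretch shown, had the second largest fall with ND-646. Cenpa, with CHR letters just after its start, did not pass the test there. The split rests on the letters searched, and 7 members had no promoter window. Whether the CHR has a part in these changes was not tested.

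Cyclins, CDK1 and the CDC25 phosphatases, which start mitosis, were lower with ND-646 in 6 of 6 genes and higher in the tumour libraries in 6 of 6. Ccna2 (cyclin A2) stood at 143, 137, 152 and 143 CPM in vehicle libraries 1 to 4 and 57.2, 66.3, 69.7 and 52.5 CPM in ND-646 libraries 1 to 4. Its log2 fold change, given here and below ± SE from edgeR's quasi-likelihood fit, was -1.22 ± 0.08 (adjusted p = 5.56e-07). The groups did not overlap, and ND-646 libraries 2 and 3 were the higher pair. Ccnb1 (cyclin B1) stood at 102, 93.2, 103 and 98.6 CPM in vehicle libraries 1 to 4 and 42.2, 48.3, 51.7 and 38.4 CPM in ND-646 libraries 1 to 4, a log2 fold change of -1.13 ± 0.08 (adjusted p = 5.6e-07). Ccnb2 (cyclin B2), whose CHR and upstream CCAAT boxes are shown above, stood at 86.3, 82.9, 89.999 and 86.8 CPM in vehicle libraries 1 to 4 and 30.9, 32.2, 34.7 and 25.9 CPM in ND-646 libraries 1 to 4. With -1.48 ± 0.07 (adjusted p = 3.51e-10) it had the largest log2 fold change of the 40 genes. Every ND-646 library was below every vehicle library for both B cyclins. Cdk1, the kinase that these cyclins activate, stood at 78.8, 78.9, 78.8 and 76.8 CPM in vehicle libraries 1 to 4 and 38.03, 46.8, 46.2 and 30.9 CPM in ND-646 libraries 1 to 4, a log2 fold change of -0.95 ± 0.12 (adjusted p = 0.000376). Its vehicle values lay close together, while ND-646 library 4 was well below the other ND-646 libraries. The phosphatases Cdc25b and Cdc25c, which activate CDK1, had log2 fold changes of -1.13 ± 0.07 and -1.22 ± 0.09.

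Between spleen and tumour these genes were less uniform. Ccna2 stood at 15.4, 9.09 and 11.4 CPM in the spleen libraries and 157, 165 and 158 CPM in the tumour libraries, a log2 fold change of 3.74 ± 0.15 (adjusted p = 7.52e-08). Ccnb1 stood at 6.22, 5.14 and 5.88 CPM in the spleen libraries and 95.9, 104 and 98.9 CPM in the tumour libraries, a change of 4.11 ± 0.08 (adjusted p = 8.68e-10). Cdk1 stood at 7.14, 3.75 and 4.59 CPM in the spleen libraries and 94.99, 111 and 103 CPM in the tumour libraries, which at 4.31 ± 0.17 (adjusted p = 7.65e-08) was the second largest log2 fold change among the 40 genes. In all 3 genes the tumour libraries lay far above the spleen libraries, and spleen library 1 was the highest of the spleen libraries. Cdc25b, by contrast, stood at 85.6, 80.3 and 82.5 CPM in the spleen libraries and 121, 111 and 104 CPM in the tumour libraries, with the smallest log2 fold change of the 40 genes, 0.44 ± 0.06 (adjusted p = 0.000117). Its spleen and tumour libraries did not overlap, but its spleen level was already near the tumour level. Ccnb2 and Cdc25c had log2 fold changes of 3.06 ± 0.22 and 3.65 ± 0.26.

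The mitotic kinases Plk1, Aurka and Nek2, which act at centrosomes and spindle poles, were lower with ND-646 in 3 of 3 genes. Plk1 (polo-like kinase 1) stood at 62.6, 60.5, 65.5 and 67.7 CPM in vehicle libraries 1 to 4 and 27.5, 32.3, 34.8 and 27.6 CPM in ND-646 libraries 1 to 4, a log2 fold change of -1.07 ± 0.07 (adjusted p = 1.48e-08). Its groups did not overlap. Aurka and Nek2 had log2 fold changes of -0.99 ± 0.05 and -1.06 ± 0.06, and Aurka was the 1 member in which ND-646 libraries 2 and 3 were not both above 1 and 4 (singled out after its values were seen). In the second table Plk1 stood at 12.1, 6.54 and 7.33 CPM in the spleen libraries and 57.2, 64.4 and 57.1 CPM in the tumour libraries, a log2 fold change of 2.78 ± 0.19 (adjusted p = 1.95e-06). Spleen library 1 was the highest spleen library, and all tumour libraries were above it. Aurka and Nek2 had log2 fold changes of 3.13 ± 0.14 and 3.46 ± 0.19.

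Of the spindle checkpoint genes, which hold anaphase until chromosomes are attached, 4 of 4 were lower with ND-646 and 4 of 4 higher in the tumour libraries. Bub1b (BubR1, a part of the inhibitor of the APC/C) stood at 114, 113, 123 and 123 CPM in vehicle libraries 1 to 4 and 53.5, 59.4, 67.3 and 52.8 CPM in ND-646 libraries 1 to 4, a log2 fold change of -1.02 ± 0.07 (adjusted p = 1.13e-07). Mad2l1, the checkpoint protein that binds CDC20, stood at 90.7, 87.1, 93.1 and 86.1 CPM in vehicle libraries 1 to 4 and 58.1, 63.2, 65.4 and 53.8 CPM in ND-646 libraries 1 to 4. At -0.57 ± 0.05 (adjusted p = 8.88e-08) it was the second smallest change of the 40 genes. Neither gene's groups overlapped, and for Mad2l1 the highest ND-646 library was closer to the vehicle libraries than for Bub1b. The checkpoint kinases Ttk and Bub1 had log2 fold changes of -1.11 ± 0.08 and -1.06 ± 0.09. In the second table Bub1b stood at 15.1, 8.49 and 10.4 CPM in the spleen libraries and 109, 114 and 107 CPM in the tumour libraries, a log2 fold change of 3.27 ± 0.16 (adjusted p = 2.8e-07), with no overlap. Bub1, Ttk and Mad2l1 had log2 fold changes of 3.81 ± 0.19, 3.74 ± 0.24 and 2.13 ± 0.09.

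Cdc20 and Ube2c serve the APC/C, the ubiquitin ligase that ends mitosis, as its mitotic activator and its ubiquitin-conjugating enzyme. Cdc20 stood at 114, 111, 116 and 115 CPM in vehicle libraries 1 to 4 and 45.8, 50.1, 54.2 and 44.2 CPM in ND-646 libraries 1 to 4, a log2 fold change of -1.23 ± 0.05 (adjusted p = 3.69e-12). The groups lay apart and the vehicle values were within a narrow range. Ube2c had a log2 fold change of -1.14 ± 0.10 in that comparison. In the second table Cdc20 stood at 13.5, 9.59 and 13.2 CPM in the spleen libraries and 85.9, 86.3 and 84.6 CPM in the tumour libraries, a change of 2.82 ± 0.11 (adjusted p = 1.69e-08). Ube2c stood at 6.75, 3.00 and 5.24 CPM in the spleen libraries and 91.9, 95.2 and 89.8 CPM in the tumour libraries, a change of 4.20 ± 0.19 (adjusted p = 1.53e-07), the third largest of the 40 genes. For both genes every tumour library was above every spleen library, and spleen library 2 was the lowest. Of 17 APC/C subunits and other regulators, 3 were higher, 5 lower and 9 did not pass with ND-646 (median -0.03), where 26.5% of all genes tested were lower. In the tumour libraries 8 were higher and 3 lower (median 0.11), where 43.6% of all genes tested were higher.

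Centromere and kinetochore genes spanned the widest range in the ND-646 comparison, with 5 of 6 lower. Cenpf, a large outer kinetochore protein, stood at 105, 94.9, 113 and 103 CPM in vehicle libraries 1 to 4 and 35.5, 43.6, 48.4 and 33.7 CPM in ND-646 libraries 1 to 4. At -1.37 ± 0.12 (adjusted p = 3.62e-05) its change was the third largest. Ndc80, the microtubule-binding subunit of the kinetochore, stood at 41.9, 39.8, 46.8 and 41.01 CPM in vehicle libraries 1 to 4 and 27.7, 28.9, 31.2 and 24.4 CPM in ND-646 libraries 1 to 4, a log2 fold change of -0.59 ± 0.07 (adjusted p = 2.24e-06). Both genes' groups lay apart, with ND-646 library 3 highest. Cenpa, the histone H3 variant that marks centromeres, stood at 151, 145, 156 and 160.4 CPM in vehicle libraries 1 to 4 and 132, 186, 156 and 111 CPM in ND-646 libraries 1 to 4. Its log2 fold change was -0.06 ± 0.16 (adjusted p = 0.766), and the ND-646 libraries spread from below to above the vehicle libraries. That value was 0.04 without ND-646 library 4, 0.15 without libraries 1 and 4, and -0.33 (adjusted p = 0.00148) without libraries 2 and 3. Under scaling by the CD8 identity genes it was 0.02. Nuf2, Spc25 and Cenpe, the first 2 being partners of Ndc80 in 1 complex and the last a kinetochore motor, had log2 fold changes of -1.28 ± 0.09, -0.76 ± 0.07 and -1.07 ± 0.12.

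In the tumour libraries 6 of 6 of these genes were higher. Cenpa stood at 37.1, 30.2 and 33.4 CPM in the spleen libraries and 200.3, 173 and 203 CPM in the tumour libraries, a log2 fold change of 2.52 ± 0.09 (adjusted p = 1.3e-08). Ndc80 stood at 10.3, 9.14 and 10.3 CPM in the spleen libraries and 46.2, 45.6 and 40.5 CPM in the tumour libraries, a change of 2.15 ± 0.09 (adjusted p = 1.87e-08). These were the lower end of the group, and neither gene's groups overlapped. Cenpe, Cenpf, Nuf2 and Spc25 had log2 fold changes of 3.56 ± 0.21, 3.43 ± 0.15, 3.38 ± 0.11 and 3.48 ± 0.17.

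The chromosomal passenger complex, which corrects faulty attachments and guides cytokinesis, was lower with ND-646 in 4 of 4 genes. Its kinase Aurkb stood at 91.6, 92.01, 98.1 and 93.1 CPM in vehicle libraries 1 to 4 and 40.2, 47.8, 51.3 and 42.1 CPM in ND-646 libraries 1 to 4, a log2 fold change of -1.05 ± 0.06 (adjusted p = 7.87e-09). Birc5 (survivin) stood at 89.4, 91.5, 90.04 and 94.3 CPM in vehicle libraries 1 to 4 and 31.2, 38.4, 38.7 and 29.4 CPM in ND-646 libraries 1 to 4. At -1.41 ± 0.08 (adjusted p = 5.82e-08) it was the second largest change of the 40 genes. For both, no ND-646 library reached the vehicle range. Cdca8 (borealin) and the scaffold Incenp had log2 fold changes of -0.87 ± 0.05 and -0.73 ± 0.06. In the second table Aurkb stood at 8.53, 5.64 and 5.98 CPM in the spleen libraries and 67.8, 63.02 and 58.1 CPM in the tumour libraries, a change of 3.22 ± 0.14 (adjusted p = 3.75e-08). Birc5 stood at 8.39, 6.59 and 8.78 CPM in the spleen libraries and 73.1, 68.9 and 64.6 CPM in the tumour libraries, a change of 3.12 ± 0.10 (adjusted p = 6.93e-09). Tumour libraries were far above spleen libraries in both. Cdca8 had a log2 fold change of 3.12 ± 0.13, and Incenp, which had a higher spleen level beside its tumour level than its partners, had a log2 fold change of 1.69 ± 0.08.

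Spindle motors were lower with ND-646 in 4 of 4 genes and higher in the tumour libraries in 4 of 4. Kif11 (Eg5), which pushes the spindle poles apart, stood at 167, 159, 181 and 166 CPM in vehicle libraries 1 to 4 and 84.01, 96.8, 109 and 80.2 CPM in ND-646 libraries 1 to 4, a log2 fold change of -0.86 ± 0.10 (adjusted p = 8.17e-05). The highest ND-646 library, 3, was still below all vehicle libraries. Kif20a, a motor of the central spindle, Kif2c, which takes microtubule ends apart, and Kif4, a motor on chromosome arms, had log2 fold changes of -1.21 ± 0.08, -1.16 ± 0.07 and -1.02 ± 0.06. Kif11 stood at 15.9, 9.49 and 13.4 CPM in the spleen libraries and 133, 128 and 119 CPM in the tumour libraries, a change of 3.29 ± 0.15 (adjusted p = 1.41e-07), without overlap. Kif20a, Kif2c and Kif4 had log2 fold changes of 2.82 ± 0.10, 3.53 ± 0.14 and 3.83 ± 0.13 there.

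Spindle assembly factors and proteins of mitotic chromosomes were lower with ND-646 in 5 of 5 genes. Tpx2, the activator of Aurora A on the spindle, stood at 143, 135, 143 and 139.8 CPM in vehicle libraries 1 to 4 and 75.6, 83.1, 82.9 and 72.5 CPM in ND-646 libraries 1 to 4, a log2 fold change of -0.84 ± 0.04 (adjusted p = 3.13e-11). Top2a, the topoisomerase that untangles sister DNA, stood at 708, 658, 734 and 699 CPM in vehicle libraries 1 to 4 and 353, 413, 453 and 351 CPM in ND-646 libraries 1 to 4, a change of -0.83 ± 0.08 (adjusted p = 1.01e-05). Mki67, the Ki-67 antigen that coats mitotic chromosomes and marks dividing cells, stood at 649.6, 572, 659 and 614 CPM in vehicle libraries 1 to 4 and 227, 302, 342 and 235 CPM in ND-646 libraries 1 to 4, a change of -1.17 ± 0.15 (adjusted p = 0.000492). None of the 3 genes' groups overlapped, and for Top2a and Mki67 ND-646 library 3 was the nearest to vehicle. Hmmr and Nusap1, which bind spindle microtubules, had log2 fold changes of -0.89 ± 0.07 and -0.97 ± 0.06.

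In the tumour libraries 5 of 5 of these genes were higher. Tpx2 stood at 12.6, 7.34 and 10.8 CPM in the spleen libraries and 131, 138 and 129 CPM in the tumour libraries, a log2 fold change of 3.69 ± 0.15 (adjusted p = 6.94e-08). Top2a stood at 58.2, 36.96 and 46.8 CPM in the spleen libraries and 479, 494 and 448 CPM in the tumour libraries, a change of 3.32 ± 0.15 (adjusted p = 1.46e-07). Mki67 stood at 71.9, 40.6 and 57.5 CPM in the spleen libraries and 478, 452 and 423 CPM in the tumour libraries, a change of 2.99 ± 0.19 (adjusted p = 2.41e-06). Spleen library 1 was the highest and spleen library 2 the lowest of the spleen libraries in all 3, and every tumour library lay above them. Hmmr and Nusap1 had log2 fold changes of 3.76 ± 0.16 and 3.26 ± 0.19.

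Central spindle and cytokinesis genes, which split the cell after anaphase, were lower with ND-646 in 5 of 5 genes. Racgap1, which with Kif23 forms the centralspindlin complex, stood at 140.3, 133, 152 and 143 CPM in vehicle libraries 1 to 4 and 78.7, 85.02, 87.9 and 77.7 CPM in ND-646 libraries 1 to 4, a log2 fold change of -0.79 ± 0.05 (adjusted p = 1.41e-10). Ect2, the exchange factor that centralspindlin recruits to activate RhoA, stood at 44.2, 40.8, 48.4 and 45.5 CPM in vehicle libraries 1 to 4 and 23.1, 25.2, 25.8 and 23.8 CPM in ND-646 libraries 1 to 4, a change of -0.87 ± 0.06 (adjusted p = 4.42e-10). The ND-646 values of both lay within a narrow range below the vehicle values. Prc1, which bundles central spindle microtubules, Kif23 and Anln had log2 fold changes of -0.93 ± 0.08, -1.24 ± 0.08 and -0.91 ± 0.11.

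Cytokinesis genes ranged widely in the tumour comparison, and 5 of 5 were higher. Anln (anillin), which links the contractile ring to the membrane, stood at 4.82, 3.20 and 3.19 CPM in the spleen libraries and 117, 160.3 and 151 CPM in the tumour libraries. At 5.25 ± 0.18 (adjusted p = 3.44e-08) it had the largest log2 fold change of the 40 genes. Its tumour library 1 was the lowest of the tumour libraries, and all were far above spleen. Racgap1 stood at 122, 110.2 and 125 CPM in the spleen libraries and 204, 212 and 201 CPM in the tumour libraries, a change of 0.79 ± 0.06 (adjusted p = 1.1e-06), the second smallest. Kif23 stood at 30.8, 28.2 and 33.4 CPM in the spleen libraries and 81.5, 94.1 and 78.1 CPM in the tumour libraries, a change of 1.46 ± 0.09 (adjusted p = 2.57e-07), the third smallest. Both centralspindlin genes were well above the floor in the spleen libraries, and their groups did not overlap. Ect2 stood at 6.61, 5.39 and 6.08 CPM in the spleen libraries and 60.4, 77.2 and 69.7 CPM in the tumour libraries, a change of 3.52 ± 0.12 (adjusted p = 7.58e-09), and Prc1 had a log2 fold change of 3.51 ± 0.11.

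Foxm1 encodes the transcription factor that activates many of these genes late in the cycle. It stood at 104, 102, 112 and 109 CPM in vehicle libraries 1 to 4 and 43.2, 52.4, 54.4 and 42.03 CPM in ND-646 libraries 1 to 4, a log2 fold change of -1.15 ± 0.08 (adjusted p = 4.33e-07). In the second table it stood at 15.9, 11.7 and 13.3 CPM in the spleen libraries and 116, 126 and 115 CPM in the tumour libraries, a change of 3.13 ± 0.10 (adjusted p = 6.49e-09). Neither comparison's groups overlapped. Its partner in late-cycle transcription, Mybl2 (B-Myb), had a log2 fold change of -1.12 ± 0.07 (adjusted p = 2.66e-08) with ND-646.

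**Figure D3:**
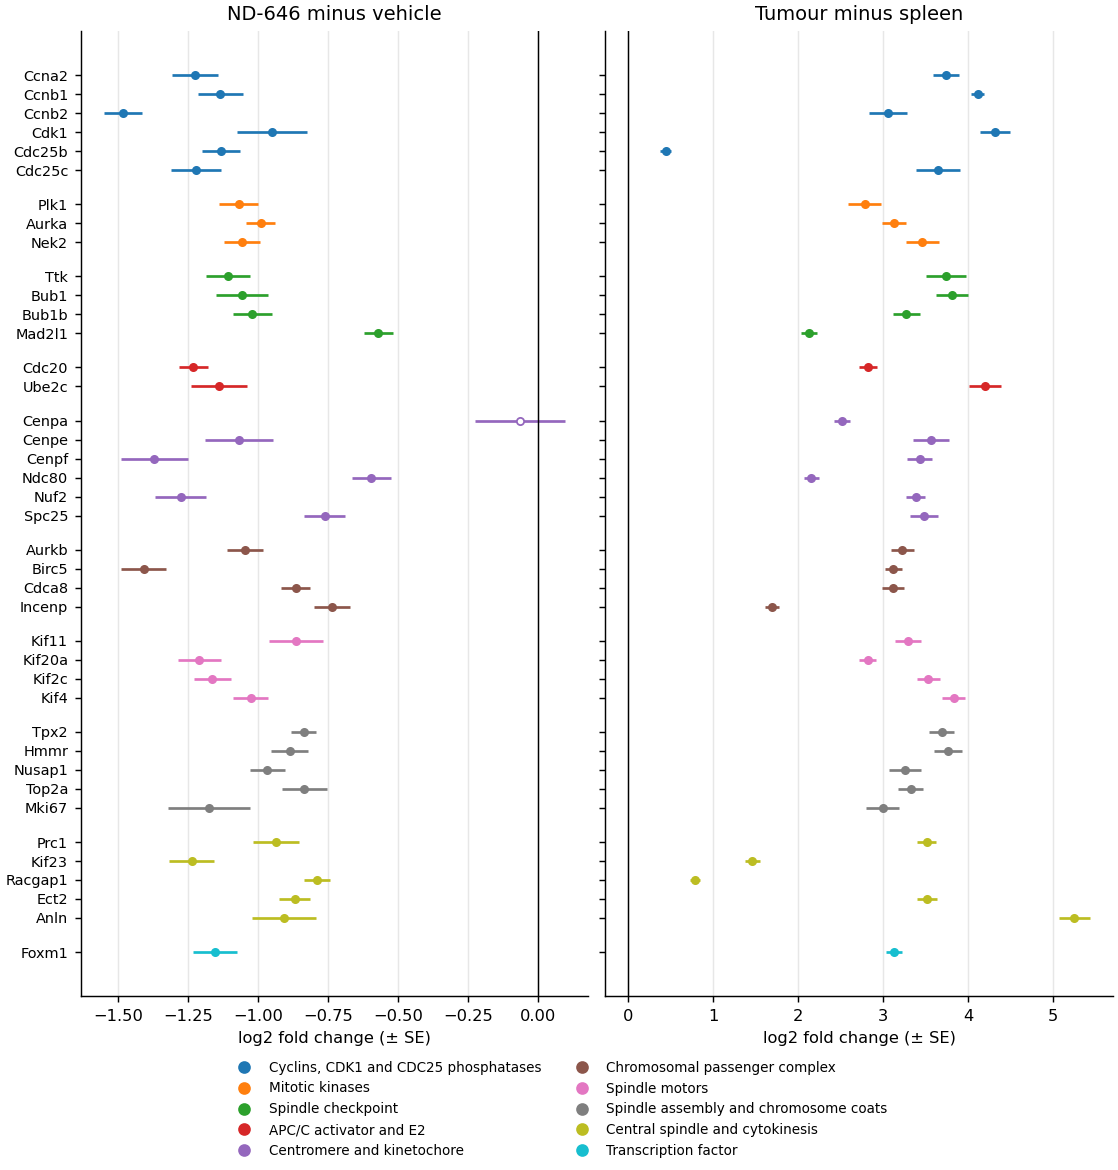
Log2 fold change ± SE of the 40 genes from edgeR, grouped and coloured by role, for ND-646 minus vehicle (left) and tumour minus spleen (right); the 2 horizontal axes differ in scale. Filled points passed the adjusted p of 0.05 and the open point, Cenpa on the left, did not; values run from -1.48 to -0.06 on the left and from 0.44 to 5.25 on the right.

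By size, 23 of the 40 genes fell by more than 1 on the log2 scale with ND-646, 16 had values between -1 and -0.5, and Cenpa was near 0. The groups did not overlap, with ND-646 lower, in 39 of 40 genes and in 24.1% of all genes tested. Tested against a minimum change of 2-fold, 5 of the 40 genes passed (Ccnb2, Cdc20, Nuf2, Birc5 and Kif23), against 1.93% of all genes. In the tumour comparison 25 genes lay between 3 and 4 and 4 above 4. The groups did not overlap in 40 of 40 genes and, with tumour higher, in 44.6% of all genes tested. Past a minimum change of 2-fold, 38 of 40 genes passed, all but Cdc25b and Racgap1, against 25.1% of all genes.

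Spread between replicates differed by group. The median coefficient of variation of the 40 genes was 4.38% in vehicle, 12.3% in ND-646, 25.0% in spleen and 5.9% in tumour libraries. ND-646 library 3 was the highest of its group in 34 genes and library 4 the lowest in 32. Spleen library 1 was the highest in 34 genes and spleen library 2 the lowest in 38. Without spleen library 1 the median log2 fold change of the 40 genes was 3.53. Vehicle library 3 was the highest of its group in 30 genes and vehicle library 2 the lowest in 32, and tumour library 2 was the highest in 24.

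**Figure D4:**
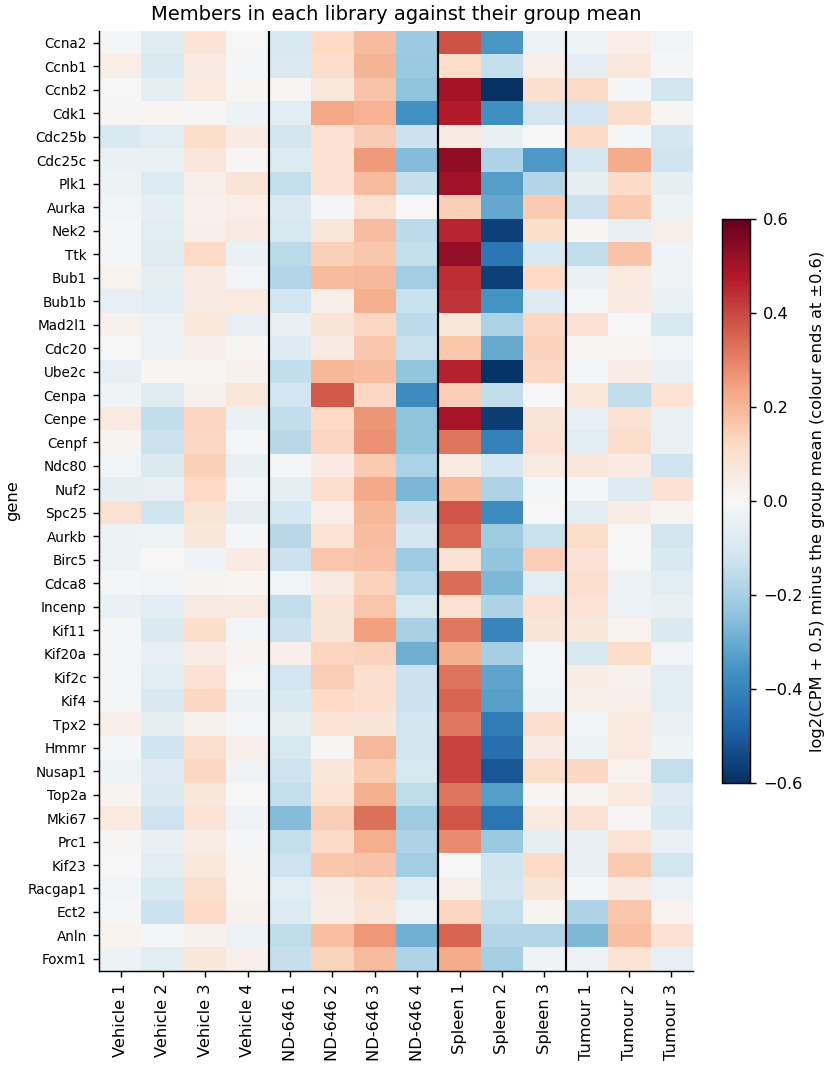
Log2(CPM + 0.5) of each gene (rows) in each library (columns) minus the mean of its group, where red is above and blue below that mean and the colour ends at 0.6. ND-646 libraries 2 and 3 are above their group mean in 39 and 40 of 40 genes and libraries 1 and 4 in 2 and 1, and spleen library 1 is above its group mean in 40 of 40 genes while spleen library 2 is above it in 0.

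Lists of related genes were read from the same fits, and their medians had the same sign and a smaller size. Of all genes tested with ND-646, 26.5% were lower and 29.8% higher, and the counts below are to be read against these shares. With ND-646, other kinetochore and centromere genes were lower in 26 and higher in 1 of 30 (median -0.52), led by p-value by Cenpi at -1.01 and Spc24 at -0.89. Other motors, spindle and tubulin genes were lower in 26 and higher in 1 of 32 (median -0.81), with Tuba1c at -1.20 and Tubb4b at -0.99. Condensin, cohesin and separase genes were lower in 16 and higher in 2 of 21 (median -0.36), with Cdca5 at -0.89 and Ncapd2 at -0.82. These lists share the direction of the 40 genes. Other mitotic entry genes were lower in 10 and higher in 3 of 15 (median -0.31), with Cks1b at -0.68 and Pbk at -1.16. Among the APC/C regulators counted above, Fbxo5 at -0.77 and Fzr1 at -0.43 had the smallest p-values.

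Genes of earlier cell cycle steps were read in the same cultures, where 26.5% of all genes tested were lower and 29.8% higher. DNA replication genes were lower in 37 and higher in 0 of 40 (median -0.36), with Tk1 at -0.85 and Rrm1 at -0.65. DREAM, MuvB, E2F and pocket protein genes were lower in 13 and higher in 1 of 18 (median -0.20), with Mybl2 at -1.12 and E2f2 at -0.71. G1 cyclins, CDKs and CDK inhibitors were lower in 8 and higher in 4 of 15 (median -0.14), with Ccne2 at -0.81 and Cdkn2d at -0.43. The difference between the lists' medians was not tested.

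In the tumour libraries all 8 lists had medians above 0, and their counts are to be read against the 43.6% of all genes tested that were higher. Other kinetochore and centromere genes were higher in 28 and lower in 0 of 30 (median 2.25), with Cenpm at 3.35 and Kntc1 at 3.13. Other motors, spindle and tubulin genes were higher in 29 and lower in 3 of 32 (median 1.81), with Fam83d at 5.80 and Tuba1c at 2.78. Other mitotic entry genes were higher in 13 and lower in 0 of 15 (median 0.79), with Cks1b at 3.83 and Melk at 3.63. The condensin, cohesin and separase list was mixed, with 14 higher and 5 lower of 21 (median 0.82), and Ncapd2 at 1.77 and Ncaph at 3.17. The APC/C list, counted above with 8 of 17 higher, was led by Ube2s at 1.78 and Fzr1 at 0.87.

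DNA replication genes were higher in the tumour libraries in 39 and lower in 0 of 40 (median 1.58), with Tk1 at 3.01 and Dut at 1.83. DREAM, MuvB, E2F and pocket protein genes were higher in 10 and lower in 2 of 18 (median 0.37), with E2f1 at 3.23 and Tfdp1 at 1.79. G1 genes were higher in 11 and lower in 4 of 15 (median 1.46), with Ccnd1 at 7.13 and Cdkn2a at 10.35. Both of these G1 genes were low in spleen libraries, where Ccnd1 stood at 1.64 to 1.70 CPM and Cdkn2a, near the floor, at 0 to 0.337 CPM. They reached 199 to 262 and 155 to 198 CPM in tumour libraries.

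**Figure D5:**
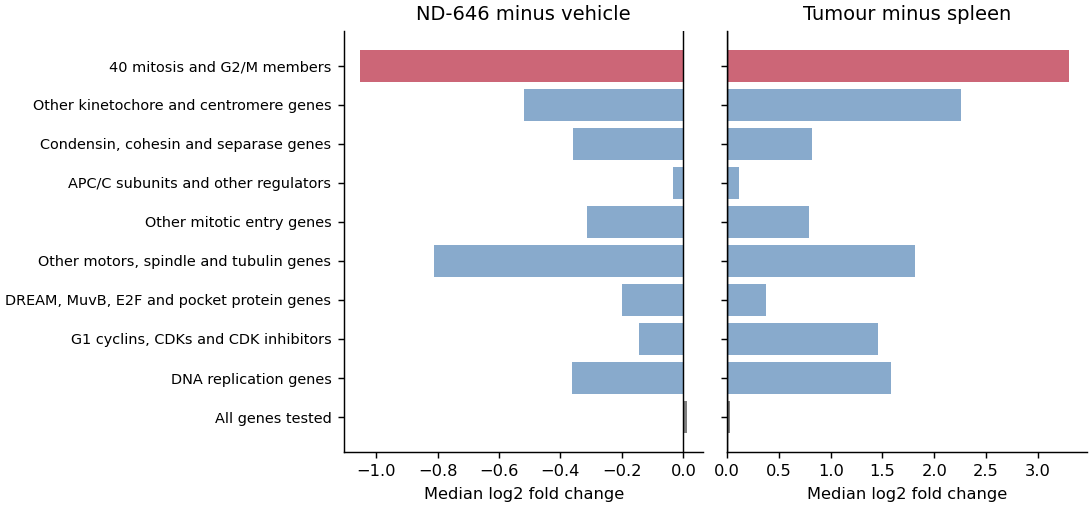
Median log2 fold change of the 40 genes (red), of 8 lists of related genes (blue) and of all genes tested (grey) in each comparison, with axes of different scale; bars start at 0. The 40 genes have the longest bar in both panels, at -1.05 and 3.31, and all genes tested lie at 0.01 and 0.03.

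Transcripts of other cell types moved with the tumour comparison. Of 24 fibroblast and fibrosarcoma genes, 23 were tested and 23 were higher in tumour libraries. Their sum, given above, was highest in spleen library 1 among the spleen libraries and in tumour library 2 among the tumour libraries. Col3a1, a fibrillar collagen and the most abundant of them, had 1.47 ± 2.16 CPM in the spleen group and 3083 ± 488 CPM in the tumour group (SD, n = 3 each). None of the 24 was at 0 in all tumour libraries. Fibrosarcoma cells also divide, and their part in the rise of the mitosis genes was not tested.

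The 17 CD8 identity genes were lower in tumour libraries in 17 of 17, led in abundance by Ptprc (CD45) with 2475 ± 30.4 CPM for spleen and 1091 ± 134 CPM for tumour (SD, n = 3 each). When libraries were scaled by these genes instead of TMM, the median of all genes shifted by 0.999 and the 40 genes by the same amount, to a median of 4.31 against 1.03 over all genes. Of all genes called, 85.7% were then higher in tumour, against 52% under TMM. All 40 genes remained higher, but this scaling could not have made them lower. The 17 genes used for it were all lower in tumour, so it raised the log2 fold changes. In the ND-646 comparison that scaling shifted the median of all genes by 0.0855 and the share of calls that were higher from 52.9 to 67.3%, and 39 of the 40 genes were still lower.

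The remaining marker lists, given below, summed to less than the CD8 identity genes in every library of the second table. Macrophage, monocyte and neutrophil genes (16) summed to 7.54 to 9.52 CPM in the spleen group and 32.2 to 48.2 CPM in the tumour group. Of 9 tested, 7 were higher and 0 lower, and the most abundant, Cd14, was at 0 counts in every spleen library and at 13.3 ± 3.68 CPM in tumour. CD4 and regulatory T cell genes (6, of which 3 were higher and 0 lower) summed to 36.8 to 41.4 and 289 to 383 CPM, with Ctla4, which activated CD8 cells also express, at 3.66 ± 0.534 and 243 ± 58.9 CPM. NK and gamma delta T cell genes (7 tested, 6 higher and 1 lower) summed to 14.6 to 17.7 and 56.0 to 86.5 CPM, with Klre1 at 2.86 ± 0.497 and 23.5 ± 5.74 CPM. The sums of these lists were higher in tumour libraries than in spleen. B cell genes (6 tested, 1 higher and 5 lower) summed to 799 to 830.3 and 93.2 to 104 CPM, with Ighm at 704 ± 17.0 and 57.5 ± 7.89 CPM. Endothelial genes (6 tested, 4 higher and 1 lower) summed to 215 to 219.8 and 101 to 113 CPM, with Pecam1, which resting T cells also express, at 166 ± 5.47 and 27.0 ± 1.76 CPM. Dendritic cell genes (5 tested, 3 higher and 1 lower) summed to 14.6 to 22.9 and 36.3 to 59.7 CPM, with Itgax at 11.4 ± 3.43 and 31.1 ± 10.3 CPM. The erythroid and platelet genes (1 tested, lower) summed to 3.09 to 4.09 and 2.06 to 2.52 CPM, with Itga2b at 3.11 ± 0.224 and 1.96 ± 0.312 CPM. Their part in the values of the 40 genes was not tested.

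In the cultures the sum of every other marker list was far below the 6735 to 7440 CPM of the CD8 identity genes. Macrophage, monocyte and neutrophil genes summed to 18.1 to 20.2 CPM in vehicle and 5.73 to 7.52 CPM in ND-646 libraries. Of 4 tested, 3 were lower and 0 higher, with Cd68 at 13.6 ± 1.43 and 4.41 ± 0.495 CPM (SD, n = 4 each) and C1qc, S100a8, S100a9, Csf3r and Marco at 0 in all 8 libraries. Dendritic cell genes (3 tested, 1 higher and 2 lower) summed to 9.21 to 12.3 and 3.36 to 3.76 CPM, with Itgax at 5.29 ± 1.22 and 0.564 ± 0.093 CPM. B cell genes (7 tested, 1 higher and 5 lower) summed to 114 to 131 and 148 to 173 CPM, mostly Ighm at 115 ± 7.11 and 162 ± 11.2 CPM. The sums of the first 2 lists were thus lower with ND-646 and that of the B cell list, through Ighm, higher. Fibroblast genes (7 tested, 1 higher and 2 lower) summed to 20.6 to 22.8 and 20.3 to 22.6 CPM, with Loxl2 at 8.06 ± 0.667 and 8.86 ± 0.916 CPM. Sums for NK and gamma delta T cells (6 tested, 2 higher and 3 lower) were 170.4 to 178 and 177 to 186 CPM, with Trdc at 135 ± 4.27 and 159.8 ± 4.76 CPM, and those for CD4 and regulatory T cells (6 tested, 1 higher and 4 lower) were 292 to 322 and 295 to 317 CPM, with Ctla4 at 155 ± 13.6 and 142 ± 8.99 CPM. Endothelial sums (2 tested, 0 higher and 2 lower) were 58.4 to 65.2 and 44.1 to 50.3 CPM, with Pecam1 at 37.5 ± 3.20 and 26.7 ± 1.47 CPM, and erythroid and platelet sums (1 tested, not passed) were 8.90 to 10.8 and 8.34 to 9.42 CPM, with Itga2b at 8.89 ± 0.972 and 8.67 ± 0.662 CPM. Of the CD8 identity genes, 5 were higher and 8 lower, with Thy1 at 1568 ± 49.5 and 1142 ± 19.4 CPM. Whether cell composition had a part in the values of the 40 genes was not tested.

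Some members are less certain than others as counts. Ccnb1 has near-identical transcript copies in the annotation, among them Ccnb1-ps, which held 110 counts over the first table against 9855 and 5523 for Ccnb1 in its 2 groups. In all, 8 of the 40 genes share at least 200 bases at 95% identity or more with another gene's transcript, and 12 overlap exons of a gene on the other strand in GENCODE M21, among them Ccna2 with Exosc9, Cdc20 with Elovl1 and Kif20a with Cdc23. Ccna2, Cdc25c, Kif20a, Kif4 and Nek2 are in both counts through the same partner gene, which overlaps them on the other strand. The libraries were directional, but whether counting used the strand is not given in the sources used here.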

How the data were processed

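Each experiment has a table of estimated counts that the authors deposited, with 55291 gene symbols. STAR, Salmon and DESeq2 are named, without versions or roles, per the submitters' processing notes. Genome build, annotation and strand setting: not given in the sources used here. Column totals differ, so the deposited estimated counts were not scaled to a common total. Whether they were adjusted in another way is not given in the sources used here. In each table about 9% of values were not whole (9.16% and 9.15%), and counts were rounded before testing. Libraries were poly(A)-selected and directional, with paired reads of 150 bases, per the labels' protocols.

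Groups came from sample titles: 4 vehicle, 4 ND-646, 3 spleen and 3 tumour libraries. The 2 tables were fitted separately with edgeR 4.0.16 under R 4.3.3. Low counts were filtered by filterByExpr, libraries were scaled by TMM, and the quasi-likelihood test was robust. P-values were adjusted by Benjamini-Hochberg over all genes tested, with a threshold of 0.05. CPM are counts per 1e+06 of TMM-scaled library size, and no gene lengths were used, so ratios between genes are compared only across libraries, and the most abundant marker of a list is so by CPM, not per length. Replicates differed by more than sampling noise (chi-square per degree of freedom 2.33 or more), and none was counted as a duplicate. The fits were also run on simulated data with far fewer changed genes than were called here. That run therefore does not show how the fits perform on these data.

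The members and lists were chosen with earlier results of these data known. All 40 members are reported. Values per library are given for 17 members chosen by role and in each comparison for the 3 largest and 3 smallest absolute log2 fold changes. For each related list the 2 genes with the smallest p-values are named, and for each marker list the most abundant member. Alternatives were the Wald test of DESeq2 1.42.0, its size factors in edgeR, limma-voom (limma 3.58.1), other low-count filters, a minimum change of 2-fold, scaling by CD8 identity genes, the replicate number as a block and leaving out each library. Leaving out pairs of ND-646 libraries was added after seeing the data. Overlapping and near-identical transcripts were found in GENCODE M21 (blastn 2.17.0+), where 53292 of the 55291 symbols matched. Promoters were RefSeq windows of 300 bases.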

Additional observations from a re-analysis of the deposited data

Results flagged for a closer look

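Cdk1 in vehicle replicate 4 lay apart from its group, at 76.8 CPM against 78.8 to 78.9 CPM in the other 3 vehicle libraries. Its gap to the nearest of them was 0.933 of the group's range, above Dixon's 95% critical value for 4 samples. It was the only 1 of 82 groups of values tested that passed this limit, and chance flags about 1 in 20 groups.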

How the results depend on the processing

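With ND-646, 39 of the 40 genes were lower under DESeq2, limma-voom, DESeq2 size factors, both other low-count filters, CD8 identity scaling and each of the 8 fits without 1 library. In the tumour comparison 40 were higher under the same alternatives and each of 6 such fits. There CD8 identity scaling could not have made any of them lower, since it raised the log2 fold changes. Leave-one-out medians of the 40 genes ran from -1.12 to -1.001 and from 3.16 to 3.53, the last without spleen library 1. Without ND-646 libraries 2 and 3 the median was -1.19. Cenpa ran from -0.207 without ND-646 replicate 2 to 0.038 without replicate 4, and was 0.021 with CD8 identity scaling and 0.15 without ND-646 libraries 1 and 4. CD8 identity scaling moved the tumour median to 4.31 and the calls in the APC/C list to 17 of 17.

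A minimum change of 2-fold left 441 genes with ND-646 (166 higher, 275 lower), 5 of the 40 members and 0 kinetochore, 0 condensin, 0 APC/C, 1 mitotic entry, 1 spindle, 1 DREAM, 0 G1 and 1 DNA replication genes. In the tumour comparison it left 5996 genes, with 9 condensin, 1 APC/C, 7 mitotic entry, 7 DREAM and 9 G1 genes. These counts are lower because the test is stricter by construction. The other changes' cause was not tested.

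No pairing by replicate number was seen. Deviations of same-numbered libraries correlated at -0.140, -0.0116, 0.0108 and 0.0567 in the first table and at -0.0255, -0.0224 and -0.0211 in the second. With so few libraries per group, these values cannot show that the libraries were unpaired. With the replicate number as a block, 7864 and 12492 genes were called, against 8028 and 12602, and the counts of members stayed at 39 and 40.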

Other observations

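Genes whose proteins work in 1 complex did not keep 1 ratio of transcripts across groups; the pairs were chosen after their values were seen and the ratios were not tested. Nuf2 and Ndc80 are dimer partners at the kinetochore. The ratio of Nuf2 to Ndc80 (CPM) was 1.15, 1.21, 1.16 and 1.204 in the vehicle libraries and 0.712, 0.759, 0.770 and 0.689 in the ND-646 libraries. In the second table it was 0.470, 0.393 and 0.403 in spleen and 0.940, 0.907 and 1.14 in tumour libraries. The groups of each table did not overlap, with the lower ratio in ND-646 and in spleen, the groups with fewer counts of the 40 genes. The ratio of Spc25 to Ndc80 had the same order, at 0.773 to 0.872 in vehicle, 0.676 to 0.749 in ND-646, 0.197 to 0.329 in spleen and 0.593 to 0.716 in tumour libraries.

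Cenpa and Cenpf, 2 centromere genes with different roles, went the other way. Their ratio was 1.38 to 1.55 in vehicle, 3.23 to 4.26 in ND-646, 3.77 to 5.25 in spleen and 1.87 to 2.45 in tumour libraries. Anln to Ect2 was 1.14 to 1.31 in vehicle and 0.972 to 1.32 in ND-646 libraries, which overlapped, and 0.525 to 0.730 in spleen and 1.94 to 2.16 in tumour libraries, which did not.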
